A study of Mus musculus with 6 samples.

Results

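The matrix proteases and their inhibitors are the secreted and membrane-bound metalloproteinases that cut the extracellular matrix, together with the proteins that block them. They were taken from the table by symbol, as every Mmp gene with a number and an optional a or b, Timp1 to Timp4, and every Adamts gene with a number. This gave 46 genes of 24980 listed, namely 23 Mmp, 4 Timp and 19 Adamts genes. A gene was called expressed when at least 3 of the 6 libraries reached 1 TPM, a relative transcript level scaled for transcript length and library total.

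The libraries were made from satellite cells, the stem cells of skeletal muscle, which had been isolated by flow cytometry; the source was hindlimb muscle of C57BL6/J adults. Of the 6 libraries, 3 were labelled scERα KO, with estrogen receptor α (Esr1) targeted in satellite cells by an induced Cre, and 3 were labelled scERα WT. All mice, WT included, had received tamoxifen, 10 mg in total. The driver of Cre, the sex of the mice and whether each library came from a single mouse are not given in the sources used here, so the p-values rest on variation between libraries, some of which may be technical.

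Levels of Esr1 were 2.92, 3.69 and 3.87 TPM in the KO libraries and 7.53, 6.96 and 6.94 TPM in the WT libraries, so that KO libraries held 48.9% of the WT mean (adjusted p = 0.0925, limma). Since the table sums transcripts per gene, it cannot show whether an exon was lost. All 12 satellite cell markers examined, Pax7 among them, passed the same expression filter. The deposited values carry no sequencing depth, so no counting interval can be given. Listed genes made up 29.5% to 33.4% of the TPM scale. Erythroid markers varied widely, with sums of 418.5, 437.3 and 38.4 TPM in KO and 214.7, 43.7 and 18.2 TPM in WT; their part in the results was not tested.

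Mmp enzymes are made as inactive zymogens in which a cysteine of the prodomain blocks the catalytic zinc, and they act once that prodomain is removed or displaced. TIMP proteins bind the active site of the mature enzymes, while TIMP2 also forms a bridge between membrane-bound MMP14 and the MMP2 zymogen that MMP14 activates. ADAMTS enzymes add thrombospondin-type repeats that hold them in the matrix, where several cut the large proteoglycans versican and aggrecan. In muscle the satellite cell lies beneath a basement membrane, and remodelling of that matrix accompanies its migration and fusion.

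Of the 46 genes 13 were expressed. They were 3 of 23 Mmp genes (Mmp2, Mmp14 and Mmp19), 3 of 4 Timp genes (Timp1, Timp2 and Timp3) and 7 of 19 Adamts genes (Adamts1, Adamts2, Adamts4, Adamts5, Adamts9, Adamts10 and Adamts20). Of the other 33 genes, 26 lay below 0.5 TPM in every library, and 3 of these, Mmp1a, Mmp1b and Adamts19, were listed at 0 in all 6. Just inside the threshold were Adamts2, with a third-highest value of 1.06 TPM, and Timp1, with 1.07 TPM. Just outside were Adamts12, Adamts8 and Adamts15, with third-highest values of 0.92, 0.82 and 0.68 TPM. The number of genes called expressed was 17 at a minimum of 0.5 TPM and 10 at a minimum of 2 TPM.

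**Figure D1:**
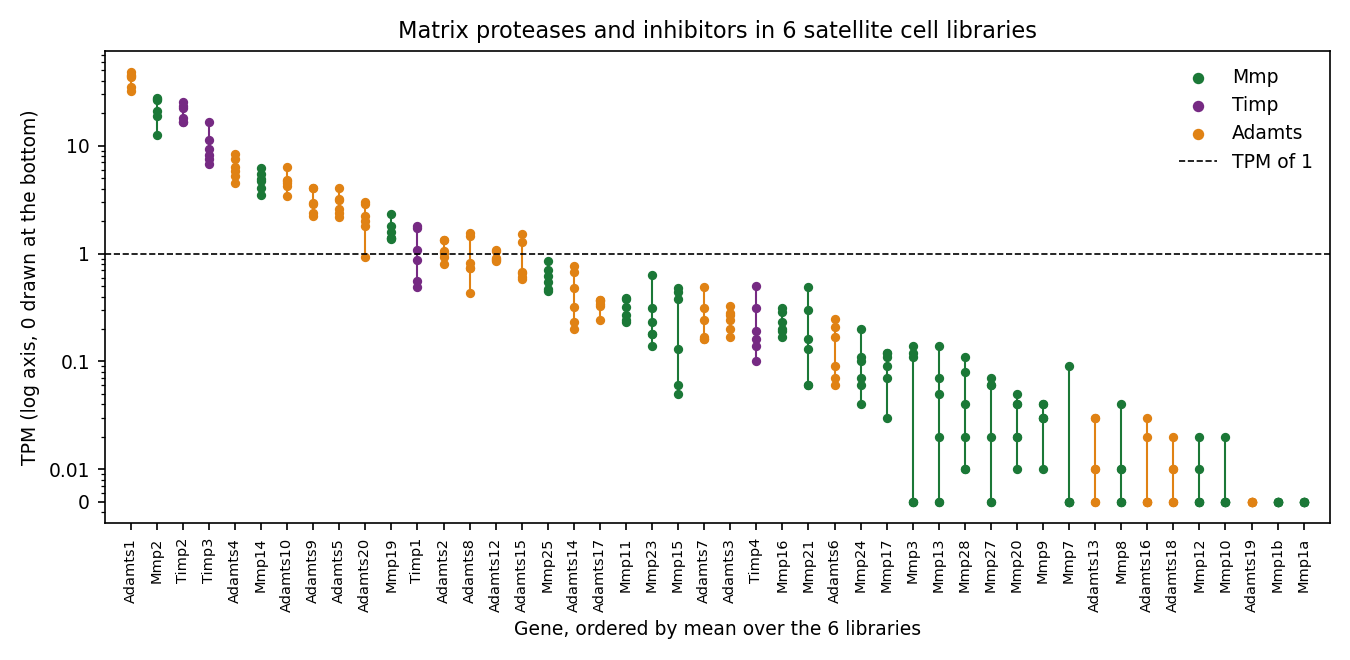
Level of all 46 genes in the 6 libraries, in TPM on a log axis with 0 drawn at the bottom; each point is a library and each line spans the lowest to the highest. Adamts1, Mmp2, Timp2 and Timp3 stand at the top, and 13 genes have at least 3 points on or above the dashed line at 1 TPM.

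Among the genes not expressed was a run of Mmp genes on chromosome 9. Between 7272514 and 7699585 (GRCm38), a span of 427.1 kb, lie 10 Mmp genes, which include the collagenases Mmp13, Mmp8, Mmp1a and Mmp1b, the stromelysins Mmp3 and Mmp10, the matrilysin Mmp7 and the macrophage elastase Mmp12. None of the 10 was expressed, and the highest value among them in any library was 0.14 TPM. The promoters of several of these genes are textbook targets of AP-1, the dimer of Fos and Jun proteins, and their sequences are shown for that reason. Each stretch is the 100 bases before the RefSeq start site (GRCm38.p6), 5′ to 3′ on the strand of the gene, and capitals mark the AP-1 letters TGANTCA, searched on both strands, and the TATA-box letters TATAAA, searched on the strand of the gene. The letters of the AP-1 motif and the TATA box overlap in none of them. Every stretch printed below for these genes holds both. Those of Mmp8, Mmp12, Mmp20 and Mmp27 are not printed, and the windows of Mmp8 and Mmp27 held no AP-1 letters.
Mmp13 (chr9:7272414-7272513, plus strand): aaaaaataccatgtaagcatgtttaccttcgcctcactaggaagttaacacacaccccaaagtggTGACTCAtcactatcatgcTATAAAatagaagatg
Mmp1b (chr9:7388027-7388126, minus strand): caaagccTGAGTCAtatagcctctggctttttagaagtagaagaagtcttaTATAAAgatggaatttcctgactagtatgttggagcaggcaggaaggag
Mmp3 (chr9:7445722-7445821, plus strand): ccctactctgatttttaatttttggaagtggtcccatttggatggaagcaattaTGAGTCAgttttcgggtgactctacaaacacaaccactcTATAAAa
Mmp1a (chr9:7464041-7464140, plus strand): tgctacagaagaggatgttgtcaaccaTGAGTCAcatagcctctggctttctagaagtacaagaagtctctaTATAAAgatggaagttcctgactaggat
Mmp10 (chr9:7502242-7502341, plus strand): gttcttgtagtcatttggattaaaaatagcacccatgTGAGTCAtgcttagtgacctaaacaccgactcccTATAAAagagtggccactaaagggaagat
Mmp7 (chr9:7691990-7692089, plus strand): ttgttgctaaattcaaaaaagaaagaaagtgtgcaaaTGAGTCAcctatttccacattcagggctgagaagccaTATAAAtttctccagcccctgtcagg

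RefSeq promoter windows, from 250 bases before to 50 bases after a start site, were matched for 32 of the 46 genes, in 35 windows. Of the 13 expressed genes 8 were matched, and Mmp2, Mmp19, Adamts4, Adamts5 and Adamts10 had no window. The AP-1 letters stood in 8 of the 12 windows of the chromosome 9 Mmp genes, or 66.7%, against 7.81% of all 32851 windows. All 8 also held the TATA-box letters, a pair found in 0.995% of all windows. These are matches of letters only. The TATA-box letters began at -16 from the start site in Mmp13, at -7 in Mmp3 and at 4, past the start site, in Mmp12. Elsewhere they began between -58 and -26, with a further match at -123 in Mmp7. In Mmp10 and Mmp7 the AP-1 letters began at -63 from the start site, and in Mmp1a at -73. The genes are neighbouring paralogs, so the windows are not independent cases.

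None of the 8 windows of expressed genes held the AP-1 letters TGANTCA, which 7.81% of all windows held. Of these 8 only Adamts1 held the TATA-box letters, at -32 from the start site. Their median content of G and C was 67.8%, against 41.7% in the chromosome 9 Mmp windows and 52.7% in all windows. The palindromic estrogen response element, GGTCA and TGACC with 3 bases between them, was in 0 of the 35 windows and in 0.07% of all windows, which says only that these letters are not in the windows searched. Only TGANTCA was searched, and other forms of the AP-1 motif were not. The Timp1 window holds TGAGTAA after the start site, which the search does not count and the printed stretch does not reach. Timp2, Timp1 and Adamts1 are printed for comparison over the same 100 bases.
Timp2 (chr11:118355412-118355511, minus strand): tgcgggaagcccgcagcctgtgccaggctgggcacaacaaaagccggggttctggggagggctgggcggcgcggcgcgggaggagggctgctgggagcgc
Timp1 (chrX:20870066-20870165, plus strand): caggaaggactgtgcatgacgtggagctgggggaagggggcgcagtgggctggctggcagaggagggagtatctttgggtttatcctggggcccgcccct
Adamts1 (chr16:85803114-85803213, minus strand): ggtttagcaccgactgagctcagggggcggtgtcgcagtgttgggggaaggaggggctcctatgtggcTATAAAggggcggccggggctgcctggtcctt

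**Figure D2:**
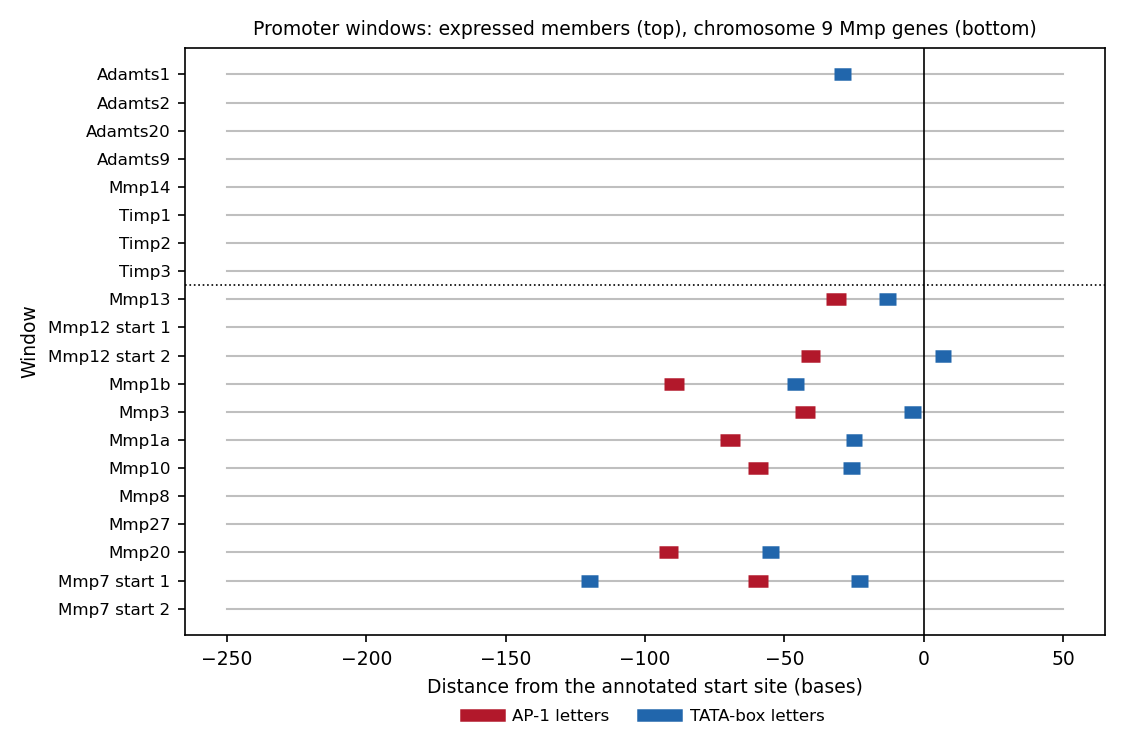
Position of the AP-1 letters (red) and the TATA-box letters (blue) in promoter windows of 8 expressed genes (top) and of the 10 chromosome 9 Mmp genes (bottom, 12 windows); the horizontal axis is the distance in bases from the annotated start site. The AP-1 letters appear in 8 of the lower windows and in none of the upper ones.

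AP-1 transcripts themselves were plentiful in the same libraries. The 8 AP-1 factors Fos, Fosb, Fosl1, Fosl2, Jun, Junb, Jund and Atf3 summed to 629, 840 and 601 TPM in KO and to 598, 864 and 641 TPM in WT, and the groups overlapped. Of the 8, 3 were higher and 5 lower in KO. Atf3 was at 59.89, 72.59 and 61.17 TPM in KO, against 75.47, 95.67 and 75.74 TPM in WT, every KO library below every WT library (log2 difference -0.34, SE 0.16; adjusted p = 0.481, limma). By limma 0 passed the adjusted threshold and 0 had an unadjusted p below 0.05.

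Mmp2 encodes gelatinase A, which cuts denatured collagen and the type IV collagen of basement membranes (chromosome 8, 92827291 to 92853420, plus strand, GRCm38 coordinates of GENCODE vM21 here and below). It was the most abundant Mmp transcript, with 62.7% to 77.6% of the summed Mmp level in a library. Its level was 27.47, 27.04 and 26.51 TPM in KO, against 18.75, 12.65 and 21.16 TPM in WT. Every KO library lay above every WT library, and the KO values lay closer together than the WT values. The means were 27.0 ± 0.481 TPM in KO and 17.5 ± 4.39 TPM in WT (SD, n = 3 each), a ratio of 1.54. The difference, KO minus WT on the log2(TPM + 1) scale, was 0.63 (SE 0.19). It did not pass an adjusted threshold of 0.05 (adjusted p = 0.27, limma, Benjamini-Hochberg over the 8971 genes that passed the filter).

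WT library 2 held the lowest Mmp2 level, and without it the log2 difference was 0.42 (adjusted p = 0.287, limma). Mmp9, which encodes the other gelatinase, was not expressed and stayed at or below 0.04 TPM in every library. The gelatinase level of these cells was therefore nearly all Mmp2, between 26.6 and 27.5 TPM summed in KO and between 12.7 and 21.2 TPM in WT.

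Mmp14 encodes the membrane-type enzyme that activates the MMP2 zymogen and cuts fibrillar collagen at the cell surface (chromosome 14, 54431612 to 54445364, plus strand). It was at 4.69, 5.52 and 6.26 TPM in KO, against 4.07, 3.48 and 4.94 TPM in WT. One WT library lay above the lowest KO library, and the log2 difference of 0.33 (SE 0.15) did not pass (adjusted p = 0.493, limma). The other 5 membrane-type enzymes, Mmp15, Mmp16, Mmp17, Mmp24 and Mmp25, were not expressed, with a highest value of 0.86 TPM, in Mmp25. The ratio of Mmp14 to Mmp2 levels was 0.171, 0.204 and 0.236 in KO and 0.217, 0.275 and 0.233 in WT.

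Mmp19, a secreted enzyme that cuts basement membrane proteins (chromosome 10, 128790910 to 128800824, plus strand), was the 1 expressed gene with a lower mean in KO. Its level was 1.59, 1.39 and 1.40 TPM in KO and 2.32, 1.38 and 1.81 TPM in WT. The groups overlapped, and the log2 difference was -0.19 (SE 0.15; adjusted p = 0.656, limma). It was -0.07 without WT library 1 and -0.31 without WT library 2. With estimated library weights it was -0.37 (adjusted p = 0.119, limma), with an unadjusted p of 0.0162. Its exons overlap those of Tmem198b on the opposite strand over up to 789 bases. Tmem198b was listed at 0.07 to 0.51 TPM, and since no strandedness is given in the sources used here, reads of the 2 genes over these bases cannot be told apart.

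Among the inhibitors, Timp2 led in every library with 57.7% to 70.5% of the summed Timp level (chromosome 11, 118301069 to 118355740, minus strand). Its level was 22.61, 25.66 and 23.20 TPM in KO, against 16.46, 16.53 and 18.28 TPM in WT. Every KO library lay above every WT library. The means were 23.8 ± 1.62 TPM in KO and 17.1 ± 1.03 TPM in WT (SD, n = 3 each), a ratio of 1.39. The log2 difference of 0.46 (SE 0.13) had the smallest adjusted p of the 13 expressed genes, 0.242 by limma, and did not pass.

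Timp2 and Mmp2 stood at nearly equal levels. The ratio of Timp2 to Mmp2 was 0.823, 0.949 and 0.875 in KO and 0.878, 1.31 and 0.864 in WT. The value of WT library 2 was the highest of the 6, and the groups overlapped. The summed Timp level over the summed Mmp level was likewise 0.906, 1.21 and 0.959 in KO and 0.911, 1.32 and 0.895 in WT.

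Timp3 encodes the inhibitor that binds to the matrix itself and that also blocks ADAMTS enzymes and the sheddase ADAM17 (chromosome 10, 86300372 to 86349506, plus strand). Its level spread widely in KO, with values of 7.5, 16.60 and 11.20 TPM in KO and of 6.77, 9.32 and 8.16 TPM in WT. KO library 1 lay inside the WT range, and the log2 difference was 0.44 (SE 0.25; adjusted p = 0.581, limma). It was 0.17 without KO library 2 and 0.70 without KO library 1. Timp3 lies within Syn3 on the opposite strand and shares up to 1733 exon bases with it, so those reads cannot be told apart. Syn3 was listed at 1.10 to 2.19 TPM.

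Markers of vessel cells varied in the same libraries. The 10 endothelial markers summed to 12.8, 27.4 and 20.4 TPM in KO and to 13.3, 20.2 and 15.2 TPM in WT, with 4 of the 10 tested and 4 of those 4 higher in KO. The 8 markers of pericytes and smooth muscle summed to 38.5, 58.9 and 54.5 TPM in KO and to 38.9, 39.6 and 38.7 TPM in WT, with 4 of the 5 tested higher in KO. Over all genes tested 77.6% were higher in KO, so such counts were common in the background too. In both lists, as in Timp3, KO library 1 was the lowest and KO library 2 the highest of the KO libraries. This order was not particular to vessel cells. The 8 muscle fibre markers had it too, with sums of 7.68, 44.12 and 38.95 TPM in KO and 11.94, 15.25 and 30.21 TPM in WT. So did Pax7, at 17.90, 32.81 and 29.46 TPM in KO, while the remaining marker lists had other orders. Of the 13 expressed genes 8 had their highest value in KO library 2, though Adamts2 and Adamts9 had the same value in KO library 3. This count was not made over all genes. The KO order of Timp3 also appeared in the library factors of median-of-ratios scaling, which follow the typical gene level of a library. The factor was 0.96 for KO library 1, 1.17 for KO library 2 and 1.07 for KO library 3. The order was thus not particular to Timp3 or to the marker lists. No marker of the vessel or muscle fibre lists was at 0 in all libraries. The part of vessel cells or muscle fibres in the Timp3 level was not tested.

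Timp1 encodes a soluble inhibitor that acts poorly on MMP14 (X chromosome, 20870166 to 20874735, plus strand). Its level was low, at 1.79, 1.71 and 0.88 TPM in KO, against 1.07, 0.56 and 0.49 TPM in WT. KO library 3 lay within the WT range, and Timp1 passed the expression filter with 3 libraries, 2 of them KO. The ratio of means was 2.07, and the log2 difference was 0.52 (SE 0.20; adjusted p = 0.391, limma). With a pseudocount of 0.1 in place of 1 the log2 difference was 0.96, since the scale understates the change of low genes, and with estimated library weights it was 0.23. Timp4, the remaining inhibitor, was not expressed, at 0.10 to 0.50 TPM.

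**Figure D3:**
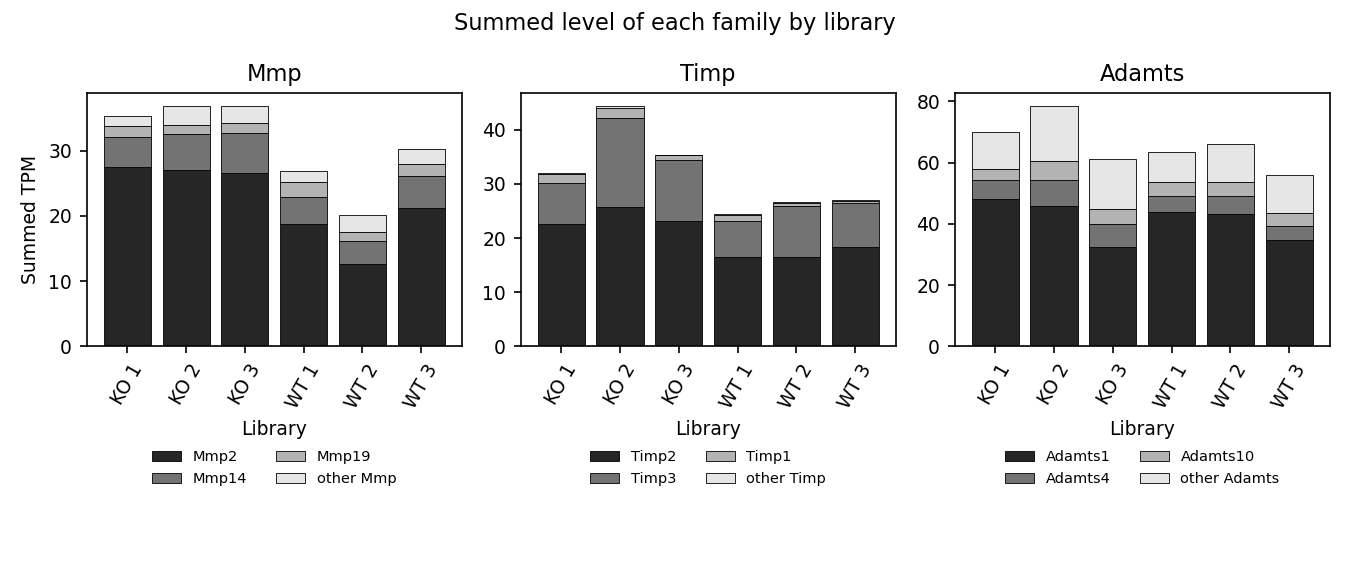
Summed TPM of the Mmp, Timp and Adamts genes in each library, KO libraries left and WT libraries right, with the leading 3 genes of each family shaded apart. Mmp2, Timp2 and Adamts1 make up most of their families in all 6 libraries, and the summed Mmp level is 35.4 to 36.9 TPM in KO and 20.2 to 30.3 TPM in WT.

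The Adamts proteoglycanases, which cut versican, aggrecan and related large proteoglycans, carried most of the Adamts level. Of 7 such genes 5 were expressed, and the 7 summed to between 52.2 and 68.1 TPM in KO and between 48.7 and 57.9 TPM in WT. Adamts1 was the most abundant of all 46 genes (chromosome 16, 85793827 to 85803113, minus strand). It was at 48.08, 45.71 and 32.42 TPM in KO and at 43.91, 43.32 and 34.86 TPM in WT. The groups overlapped fully, and the log2 difference was 0.03 with a 95% interval from -0.39 to 0.46 (adjusted p = 0.949, limma). Its sign turned to -0.12 under median-of-ratios scaling.

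Adamts5, an aggrecanase, is the neighbour of Adamts1 on chromosome 16 (85856173 to 85901828, minus strand) but was listed at a far lower level. It was at 2.58, 4.08 and 3.12 TPM in KO and at 2.38, 3.23 and 2.17 TPM in WT. The groups overlapped, with a log2 difference of 0.24 (SE 0.17; adjusted p = 0.635, limma). The difference was 0.11 without KO library 2, 0.16 without WT library 3 and 0.37 without WT library 2.

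Adamts4, another aggrecanase (chromosome 1, 171250421 to 171260637, plus strand), was at 6.33, 8.48 and 7.49 TPM in KO, against 5.28, 5.82 and 4.47 TPM in WT. Every KO library lay above every WT library. The means were 7.43 ± 1.08 TPM in KO and 5.19 ± 0.68 TPM in WT (SD, n = 3 each), and the log2 difference was 0.44 (SE 0.15; adjusted p = 0.325, limma).

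Adamts9, which cuts versican (chromosome 6, 92772699 to 92943492, minus strand), was at 2.87, 4.07 and 4.07 TPM in KO, against 2.39, 2.25 and 2.97 TPM in WT. Only the lowest KO library lay inside the WT range, and the log2 difference was 0.40 (SE 0.15; adjusted p = 0.40, limma). Adamts9 shares exon bases with genes annotated on the opposite strand. Adamts20, its closest relative (chromosome 15, 94270163 to 94465418, minus strand), was at 1.82, 3.03 and 2.90 TPM in KO and at 0.93, 2.25 and 2.01 TPM in WT. These groups overlapped, with a log2 difference of 0.41 (SE 0.23; adjusted p = 0.561, limma). For Adamts20 it was 0.18 without WT library 1 and 0.77 with estimated library weights.

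The procollagen N-proteinases, which trim the amino end of fibrillar procollagens, were scarce. Adamts2 (chromosome 11, 50602084 to 50807573, plus strand) was at 1.01, 1.33 and 1.33 TPM in KO and at 0.80, 1.06 and 0.94 TPM in WT, with 1 WT library inside the KO range and a log2 difference of 0.20 (SE 0.13; adjusted p = 0.608, limma). Adamts3 and Adamts14 were not expressed. Adamts14 was at 0.48, 0.77 and 0.67 TPM in KO and at 0.32, 0.23 and 0.20 TPM in WT. Adamts3 was at 0.33, 0.27 and 0.28 TPM in KO and at 0.17, 0.24 and 0.20 TPM in WT. In both genes the KO values lay above the WT values.

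Adamts10, linked to fibrillin microfibrils (chromosome 17, 33524204 to 33553782, plus strand), was at 3.45, 6.35 and 4.82 TPM in KO, around a narrower WT range of 4.50, 4.67 and 4.26 TPM. Its log2 difference was 0.07 (SE 0.18; adjusted p = 0.888, limma), and under median-of-ratios scaling it was -0.06. Of the other Adamts genes, Adamts13, which cuts von Willebrand factor, Adamts16 and Adamts18 stayed at or below 0.03 TPM. Adamts8 and Adamts15, proteoglycanase genes that neighbour each other on chromosome 9, lay just below the threshold. Adamts8 was at 0.82, 1.47 and 1.55 TPM in KO and at 0.73, 0.43 and 0.73 TPM in WT, and Adamts15 at 0.66, 1.27 and 0.68 TPM in KO and at 0.58, 0.61 and 1.52 TPM in WT.

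**Figure D4:**
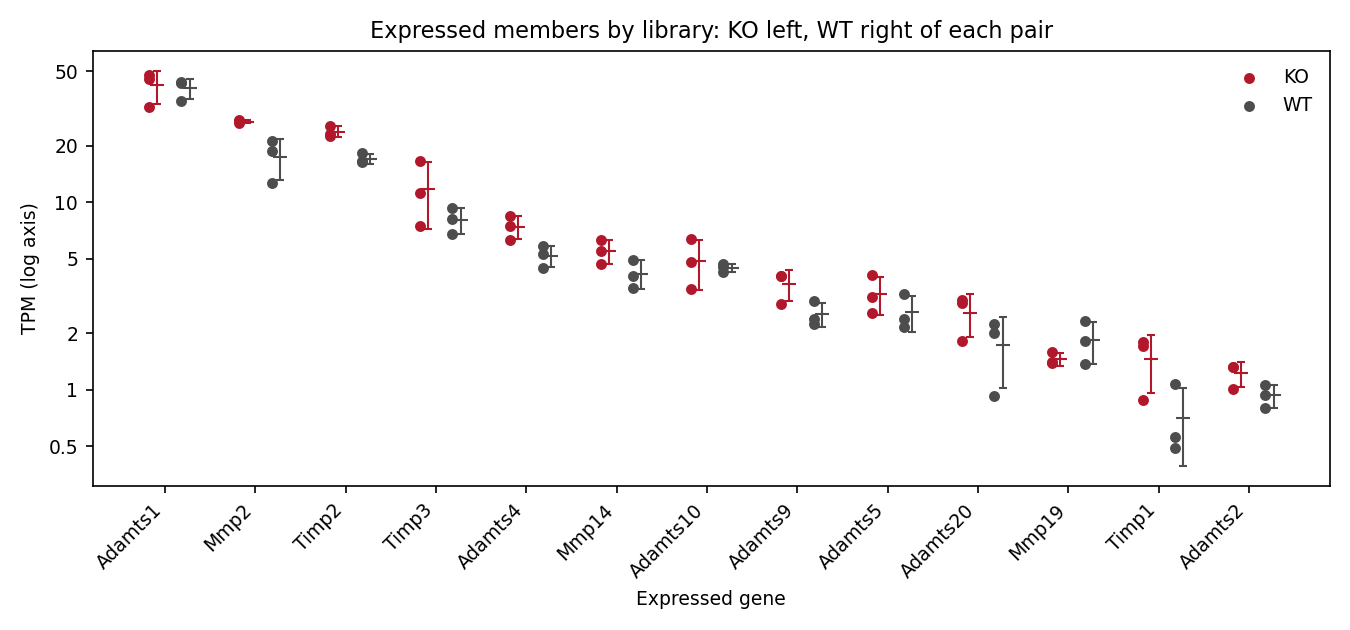
Level of the 13 expressed genes in TPM on a log axis; points are libraries, KO left and WT right in each pair, with the group mean and SD beside them (n = 3 each). Mmp2, Timp2 and Adamts4 are the genes in which all KO points lie above all WT points.

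Taking KO against WT over the 13 expressed genes, 12 had a higher value in KO and 1, Mmp19, a lower one. Over all 8971 genes tested 77.6% had a higher value, with a median log2 difference of 0.12, so positive values were common in the background too. The median log2 difference was 0.33 over the 3 Mmp genes, 0.46 over the 3 Timp genes and 0.24 over the 7 Adamts genes. Without the filter on low values it was 0.01 over 21 Mmp genes, 13 of them higher and 8 lower, 0.45 over 4 Timp genes and 0.088 over 18 Adamts genes. In 3 of the 13, Mmp2, Timp2 and Adamts4, every KO library lay above every WT library, against 13.5% of all genes tested, and in 0 of the 13 every KO library lay below, against 3.07%.

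No gene of the 13 passed the adjusted threshold of 0.05 in either direction by limma, where 0.0334% of all genes tested passed as higher and 0.0223% as lower, 0.0557% in all. Without adjustment, p lay below 0.05 for 5 genes higher in KO (Mmp2, Timp1, Timp2, Adamts4 and Adamts9) and for 0 lower, against 7.89% and 2.66% of all genes tested. Adjusted p-values of the 13 ran between 0.242 and 0.949. Without a filter on low values, 6 of the 43 genes above 0 in some library had every KO library above every WT library, namely Mmp2, Timp2, Adamts3, Adamts4, Adamts8 and Adamts14, and 0 had the reverse, against 9.13% and 2.31% of the 20506 genes so counted.

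Scaling the libraries by the median of ratios brought the median of all genes to 0.003 and lowered the differences of the 13 genes. Mmp2 was then at 0.47, Timp1 at 0.44, Timp2 at 0.30 and Adamts4 at 0.31 on the log2 scale. Of the 13 genes 10 had a higher and 3 a lower value under this scaling. An unadjusted p under 0.05 by limma remained for 1 gene, Adamts4, higher in KO. Over all 8971 genes, 329 were higher and 443 lower in KO at that p under the same scaling. The Timp median was 0.30, the Mmp median 0.20 and the Adamts median 0.12.

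**Figure D5:**
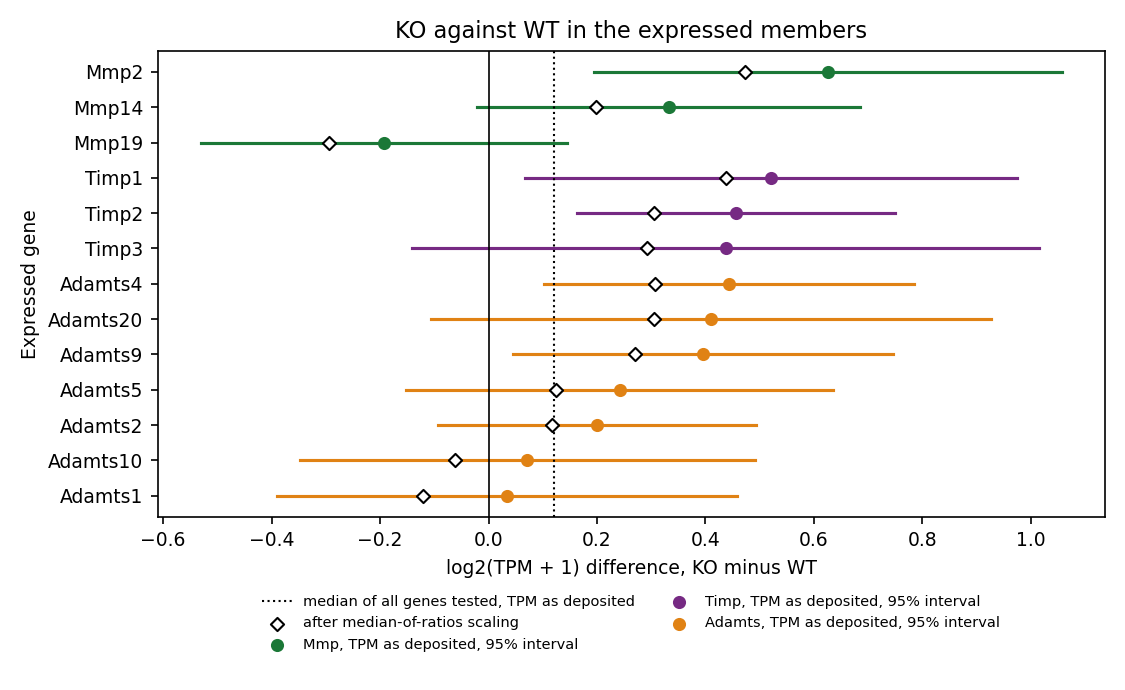
Difference of the 13 expressed genes, KO minus WT on the log2(TPM + 1) scale, with 95% intervals from limma (filled points) and after median-of-ratios scaling (open diamonds); the dotted line is the median of all genes tested, 0.12. Mmp2 has the largest difference, 0.63, and Adamts1 and Adamts10 change sign between the scalings.

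Markers of other cell types were set beside these values. The 13 markers of fibro-adipogenic progenitors and fibroblasts, cells that also secrete MMP2 and TIMP2, summed to 168, 189 and 199 TPM in KO and to 156, 136 and 242 TPM in WT, with 5 of the 7 tested higher in KO, and none at 0 throughout. The sums overlapped, and the median log2 difference of the 7 was 0.49, against 0.12 over all genes tested, of which 77.6% were higher in KO. Dpt, which encodes dermatopontin, was at 42.68, 50.86 and 39.14 TPM in KO and at 31.07, 23.43 and 25.83 TPM in WT, every KO library above every WT library (log2 difference 0.70, SE 0.16; adjusted p = 0.185, limma). Col1a2, which encodes a chain of type I collagen, was at 1.65, 3.21 and 5.52 TPM in KO and at 1.16, 0.70 and 1.90 TPM in WT (log2 difference 0.92, SE 0.32; adjusted p = 0.346, limma). Gsn lay in every KO library below every WT library, at 60.2 to 67.1 TPM in KO and 70.9 to 77.0 TPM in WT. Pdgfra, a defining marker, was not expressed, at 0.13 to 0.20 TPM in KO and at 0.10 to 0.31 TPM in WT. The 8 Schwann and glial markers summed to 8.16, 15.2 and 21.1 TPM in KO and to 7.12, 6.70 and 9.0 TPM in WT, with 3 of the 4 tested higher in KO and Gfra3 at 0. The part of these cells in the Mmp2 and Timp2 levels was not tested. In sorted bulk RNA, more cells of a type and more RNA per cell cannot be told apart.

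The wider proteolytic machinery was examined through 9 lists with 103 genes, of which 54 were tested. Of these 37 had a higher and 17 a lower value in KO, where 77.6% of all genes tested were higher, and the median log2 difference was 0.11, near the 0.12 of all genes. In 15 of the 54 every KO library lay above every WT library and in 2 below, against 13.5% and 3.07% of all genes tested. None passed the adjusted threshold by limma, while p before adjustment lay below 0.05 for 9 higher and 1 lower, against 7.89% and 2.66%. The smallest adjusted p was 0.154, for Bmp1.

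In the plasminogen activator system, whose protease plasmin can activate Mmp zymogens, 4 of the 7 tested genes were higher and 3 lower in KO. Plaur, the receptor that holds urokinase at the cell surface, was at 17.16, 12.25 and 11.51 TPM in KO, against 6.65, 9.14 and 6.40 TPM in WT (log2 difference 0.80, SE 0.19; adjusted p = 0.194, limma). In Plaur every KO library lay above every WT library, yet it did not pass. Plau, which encodes urokinase, was at 35.0 ± 5.39 TPM in KO and 29.3 ± 4.30 TPM in WT (SD, n = 3 each), with overlapping groups. Plg, which encodes plasminogen itself, was at or below 0.03 TPM.

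Among 17 regulators of Mmp enzymes 12 were tested, 8 with a higher and 4 with a lower value in KO. Cav1, a caveolar protein, was at 36.50, 37.13 and 34.29 TPM in KO and at 20, 22.99 and 26.26 TPM in WT (adjusted p = 0.185, limma), and Cd44, a hyaluronan receptor that can dock MMP14, was at 44.04, 29.56 and 26.02 TPM in KO and at 23.85, 23.92 and 18.52 TPM in WT (adjusted p = 0.403, limma). In both, every KO library lay above every WT library. Furin, which cuts the prodomain of MMP14, was at 7.67 ± 1.42 TPM in KO and 7.66 ± 0.662 TPM in WT (SD, n = 3 each; log2 difference -0.01, SE 0.15). Reck, a membrane-anchored Mmp inhibitor, was below the threshold, at 0.61 to 0.92 TPM in KO and 0.45 to 0.71 TPM in WT.

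Of the 3 tested procollagen processing genes, all with a higher value in KO, Bmp1 encodes the C-proteinase that trims the other end of fibrillar procollagens. It was at 6.0, 8.12 and 7.19 TPM in KO, against 4.30, 4.0 and 3.84 TPM in WT (log2 difference 0.68, SE 0.14). No KO library came near the WT range, yet the gene did not pass. Among proteoglycans and link proteins, on which the Adamts enzymes act, 3 of 11 were tested, 2 with a higher and 1 with a lower value in KO. The lower one, Dcn, was at 7.32, 13.03 and 8.23 TPM in KO and at 8.26, 13.44 and 8.66 TPM in WT. Vcan, which encodes versican, was at 2.23, 2.27 and 1.92 TPM in KO and 1.09, 1.43 and 1.37 TPM in WT (adjusted p = 0.231, limma), and Bgn, which encodes biglycan, was at 25.1 ± 3.60 TPM in KO and 17.2 ± 3.48 TPM in WT (SD, n = 3 each; adjusted p = 0.344, limma). Acan, which encodes aggrecan, stayed at or below 0.05 TPM.

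Of 11 tested cathepsins and cystatins 9 had a higher value in KO, with a median log2 difference of 0.07. The lysosomal Ctsl was at 22.9 ± 3.55 TPM in KO and 22.8 ± 4.42 TPM in WT, and the inhibitor Cst3 at 19.0 ± 0.754 TPM in KO and 16.0 ± 0.694 TPM in WT (SD, n = 3 each). All 3 tested Adam genes, Adam9, Adam10 and Adam17, had a higher value, with a median of 0.20, and all 4 tested genes among ADAMTS-like proteins and their fibrillin partners did, with a median of 0.34. Of the 3 tested genes in the HTRA and surface serine protease list, 2 had a lower value, and Htra3 was at 10.46, 15.67 and 15.22 TPM in KO and at 15.60, 17.91 and 18.54 TPM in WT (adjusted p = 0.549, limma).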

How the data were processed

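RNA-seq was done on 6 libraries of sorted satellite cells. Tools given, per the submitters' processing notes, are kallisto, Trimmomatic 0.33, CASAVA and FastQC; mm10 and GRCm38 are listed as builds, and no roles are stated. The authors deposited TPM per gene symbol; how transcripts were summed per gene, the annotation, strandedness and depth are, in the sources used here, not given. The 8971 genes reaching 1 TPM in 3 libraries or more entered a limma fit (version 3.58.1, R 4.3.3) of log2(TPM + 1) (eBayes with a trend, two-sided, Benjamini-Hochberg over all genes tested, threshold 0.05). The pseudocount makes differences of low genes look smaller. The procedure was tested on simulated data. Groups and libraries follow the labels, with replicates numbered in accession order. The genes, lists, roles and tests were chosen with earlier results of these data known. All expressed genes were named, with the 3 nearest below the threshold, Esr1 and up to 3 genes per list by smallest p; other genes named were chosen after their values were seen, and some items are not reported here. Coordinates are from GENCODE vM21 by symbol, 46 of 46 matched, and sequences from RefSeq (GRCm38.p6).

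The alternatives were pseudocounts of 0.1 and 5, other filters, median-of-ratios scaling, quantile normalization, protein-coding genes (RefSeq biotype) rescaled to a common total, eBayes without a trend, library weights estimated by limma, and each library left out in turn. Filtering after the rescaling was added after the data were seen.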

Additional observations from a re-analysis of the deposited data

How the results depend on the processing

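No Mmp, Timp or Adamts gene passed an adjusted p of 0.05 by limma under any of the 17 alternatives; the smallest adjusted p was 0.0624, for Timp2 with estimated library weights. Genes higher in KO with an unadjusted p under 0.05 numbered between 1 of 13 (median of ratios) and 9. The 9 were of 13 tested with library weights and of 29 when filtered after the rescaling. Over all genes, 329 of 8971 were so higher under median of ratios, 2079 of 8971 with library weights and 1941 of 13536 filtered after rescaling. With library weights 1 gene, Mmp19, was lower, against 315 of all 8971. Of the log2 differences of the 13 genes, signs turned for Adamts1, at -0.12 under median of ratios, -0.12 under quantile normalization and -0.13 with library weights, and for Adamts10, at -0.062 under median of ratios and -0.069 under quantile normalization. Leaving out a library gave -0.071 to 0.21 for Adamts1 and -0.11 to 0.26 for Adamts10; the cause was not tested. Expressed genes numbered 29 of 46 when protein-coding genes were rescaled before filtering, since that multiplies TPM by 8.31 to 10.15. Esr1 passed with protein-coding genes rescaled (-0.96, adjusted p = 0.0361) and with library weights (-0.86, adjusted p = 0.0222).

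Over all genes, 3 were higher and 2 lower in KO. The counts were 0 and 2 at a pseudocount of 0.1, 2 and 0 at 5, 0 and 0 with no filter or a mean TPM of 1, 1 and 2 at TPM of 5 or quantile normalization, 1 and 1 under median of ratios, 38 and 48 with protein-coding genes rescaled, 2 and 4 when filtered after that, 53 and 27 with library weights, and 0 to 4 and 0 to 2 without a library. At these counts of 0 an unadjusted p under 0.05 was found for 723 to 1198 genes higher, or 474 without KO library 3, and for 203 to 374 lower. In the 9 lists, 3 genes, Bmp1, Cav1 and Plaur, were called higher with protein-coding genes rescaled and 3, the same genes, with library weights. No paired analysis was possible because no number in the titles is shared by a KO and a WT library.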
